A study of Mus musculus with 2 samples.

Results

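The p53 and DNA damage checkpoint genes described here are 10 mouse genes, Trp53, Mdm2, Mdm4, Ppm1d, Ccng1, Zmat3, Atm, Atr, Chek1 and Chek2. They were chosen by name for their place in the pathway, and all 10 were found among the 43346 Ensembl genes of the deposited tables. The assay was sequencing of total RNA from common myeloid progenitors, primary cells from which the red cell, platelet, granulocyte and monocyte lineages arise. Their donors were C57BL/6J mice, male, adult and 5 to 6 weeks old, with no mutation or treatment named in the labels. There was 1 group of 2 libraries, replicates 1 and 2, which carry the same donor label. With 1 group there was no contrast between conditions, so levels are described with their spread over these 2 libraries, which may be partly technical.

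p53, the product of Trp53, is a transcription factor that stops the cell cycle or starts cell death when DNA is damaged. In unstressed cells Mdm2 and its partner Mdm4 hold it down, Mdm2 by marking it for destruction and Mdm4 by blocking its activation domain. DNA breaks and stalled replication forks activate the kinases Atm and Atr, which switch on Chek2 and Chek1, and all of these kinases can phosphorylate p53 or its inhibitors. Mdm2, Ccng1, Zmat3 and Ppm1d are themselves p53 targets, and blood progenitors are among the cells that respond most readily to p53.

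Replicate 1 held 28158803 expected counts (estimated reads per gene) and replicate 2 held 84041054, 2.98 times as many. Levels are TPM, transcript abundance corrected for transcript length and scaled to 1000000 over all RNA in the table. Nuclear protein-coding genes made up 20.1% of TPM in replicate 1 and 21.5% in replicate 2. All 8 common myeloid progenitor markers reached 1 TPM in both libraries, with a median of 29.8 TPM. None of 5 B cell markers and none of 5 T and NK cell markers did, and 4 of each had 0 counts in both libraries. Late markers of neutrophils reached that level for 3 of 5 genes, with summed levels of 47.4 TPM in replicate 1 and 54.3 TPM in replicate 2. Late markers of red cells also reached it for 3 of 5 genes, with sums of 16.9 and 17.4 TPM in the same order. Of 5 stromal and endothelial markers only Pecam1, which blood progenitors also express, reached it. The part of such cells in the levels below was not tested. In bulk RNA, fewer cells of a type and less RNA per cell cannot be told apart.

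All members but Zmat3 were transcribed at 1 TPM or more in both libraries. These 9 of 10 members stand beside 42.5% of 21461 nuclear protein-coding genes. The median level of the members was 14.5 ± 0.346 TPM (SD, n = 2), against 0.34 TPM over all nuclear protein-coding genes and 7.29 TPM over those that reached 1 TPM in both libraries. Highest by mean TPM stood Mdm4, Chek1 and Trp53. The lowest were the p53 targets Ppm1d and Zmat3.

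**Figure D1:**
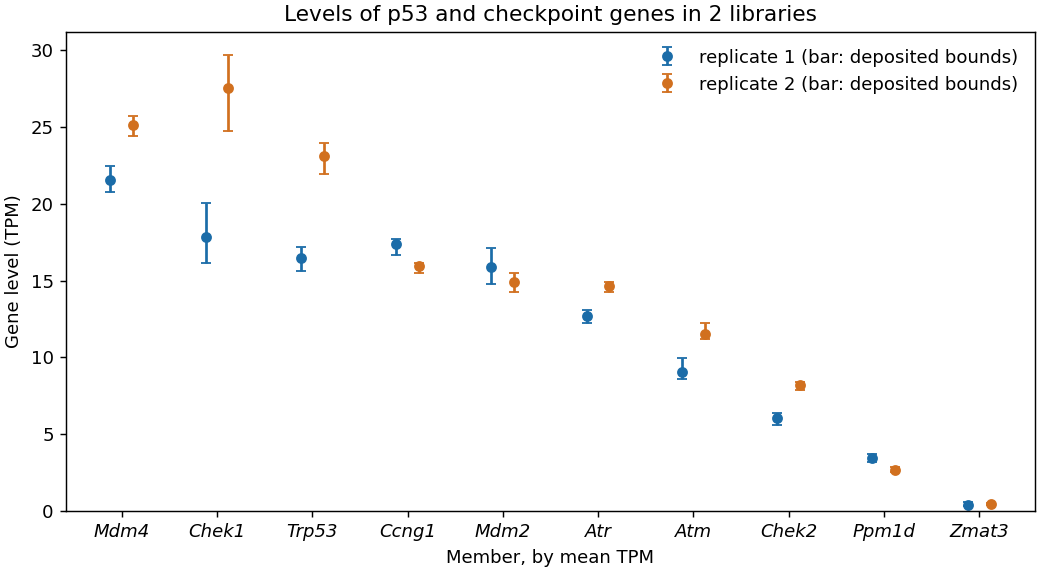
Gene level in TPM (vertical axis) of the 10 members in replicate 1 and replicate 2 (points), with the bounds deposited for each value (bars, whose confidence level the files do not give). Mdm4 had the highest mean, from 21.6 and 25.1 TPM, and Zmat3 the lowest, from 0.38 and 0.41 TPM.

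Trp53 lies on chromosome 11 at 69580359 to 69591873 on the plus strand (GRCm38). Its level was 16.4 TPM in replicate 1 and 23.1 TPM in replicate 2 (19.8 ± 4.72, SD, n = 2). It rested on 2018 and 6221 reads, or 71.7 and 74.0 CPM (counts scaled to a library total of 1000000). The TPM values thus lay further apart than the CPM values. The effective length used for the gene was 1609 nt in replicate 1 and 1381 nt in replicate 2. Length is only a part of this gap. Atr, at 197 and 195 CPM with effective lengths of 5735 and 5746 nt, also stood higher in TPM in replicate 2, at 12.7 and 14.6. TPM thus carried an offset between the libraries that is not one of length. Of the nuclear protein-coding genes, 91.8% had a lower mean TPM. The annotated pseudogene Trp53-ps on chromosome 17 had 0 counts in both libraries.

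Mouse Trp53 is known for a spliced form that keeps a piece of the last intron and ends in other residues than the regular protein. In the annotation this piece is an extension of 96 nt at the front of the last exon, at chr11:69591254-69591349 on the plus strand, carried by Trp53-202 and Trp53-206. Its first 52 nt are coding, and they are shown with the coding start of the last exon without it, because the choice between them sets the end of the protein. Capitals mark the bases after the splice site and lower case the last 20 bases of the exon before it.

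Trp53-206: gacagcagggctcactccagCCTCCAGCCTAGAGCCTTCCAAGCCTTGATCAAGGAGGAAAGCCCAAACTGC
Trp53-203: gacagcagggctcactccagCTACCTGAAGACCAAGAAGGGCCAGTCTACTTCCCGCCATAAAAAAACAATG

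The extended form was estimated at 0 TPM in replicate 1 and 3.80 TPM in replicate 2, with 0 and 1200 reads assigned to it. All of this came from Trp53-202, whose deposited bounds reached 0.461 TPM in replicate 1 and ran between 2.98 and 4.36 TPM in replicate 2. Among models that hold this junction, the extended form made up 0% of TPM in replicate 1 and 21.1% in replicate 2. By posterior mean TPM, an estimate averaged over read assignments, the same shares were 1.54% and 21.1%. The form was thus seen in the deeper library only, and the bounds of the libraries did not overlap.

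Models Trp53-201 and Trp53-203 differ by 1 nt in length and in the annotated coding start, and together they held most of the gene. Their summed level was 15.9 TPM in replicate 1 and 14.2 TPM in replicate 2, closer than the gene totals. The split between them had bounds as wide as 1.44 to 13.8 TPM for Trp53-201 in replicate 2, so it is not read here. A noncoding model of 403 nt was listed at 0 TPM in replicate 1 and at 4.26 TPM, from 168 reads, in replicate 2.

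Mdm2, the ubiquitin ligase of p53 and also its target, lies on chromosome 10 at 117688875 to 117710758 on the minus strand. Its level was 15.9 TPM in replicate 1 and 14.9 TPM in replicate 2 (15.4 ± 0.686), from 2325 and 6384 reads. In TPM its coefficient of variation of 4.46% was the lowest among the members. This rank holds in TPM only. In CPM Mdm2 stood at 82.6 and 76.0, relatively further apart than Atr at 197 and 195. Below the gene total the libraries differed: complete coding models, those annotated from start to stop codon, held 57.6% of its TPM in replicate 1 and 40.2% in replicate 2.

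The largest gain in share, from 0% in replicate 1 to 25.7% in replicate 2, was that of Mdm2-209. This model is annotated as a target of nonsense-mediated decay, the pathway that degrades RNA with an early stop codon. It lacks an exon of 97 nt at chr10:117695953-117696049 on the minus strand, a length that leaves a remainder of 1 on division by 3. The exon is shown in capitals between 20 bases of each neighbouring exon, followed by the junction of the same neighbours without it.

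Mdm2-201: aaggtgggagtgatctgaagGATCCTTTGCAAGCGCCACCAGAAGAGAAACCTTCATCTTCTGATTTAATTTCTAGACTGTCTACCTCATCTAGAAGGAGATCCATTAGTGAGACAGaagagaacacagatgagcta
Mdm2-209: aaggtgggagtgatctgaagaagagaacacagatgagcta

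Mdm2-209 was estimated at 0 TPM in replicate 1, with an upper bound of 0.861 TPM, and at 3.83 TPM in replicate 2, with bounds of 3.29 and 4.28 TPM. It took 0.03 reads in replicate 1 and 1915 reads in replicate 2. Among models that span the site, the form without the exon made up 0% of TPM in replicate 1 and 32.8% in replicate 2, and 3.07% and 32.8% by posterior mean TPM.

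Mdm2 has an upstream promoter before exon 1 and a second one in intron 1 that is known to answer to p53. Models that start in exon 1 held 75.9% of Mdm2 TPM in replicate 1 and 72.3% in replicate 2. Models that start in intron 1 or exon 2 held 18.3% and 27.7%. By reads the libraries lay further apart, with 93.9% in replicate 1 and 69.6% in replicate 2 on models that start in exon 1, and 3.93% and 30.4% on those that start in intron 1 or exon 2. In replicate 1 short models of 683 and 499 nt, with 71.6 and 19.7 reads, held nearly all of that second class. Mdm2-209 starts in intron 1 or exon 2, so its start and its missing exon enter the estimate as 1 unit.

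Mdm4, the non-degrading partner of Mdm2, lies on chromosome 1 at 132959484 to 133030561 on the minus strand. Its level was 21.6 TPM in replicate 1 and 25.1 TPM in replicate 2 (23.3 ± 2.53), the highest mean of the members. It also had the most reads, 7206 and 20010. A pseudogene on the opposite strand within it, Gm29257, held 22.7 and 158 counts, and Mdm4-ps on chromosome X held 9.02 and 2.02. The counts of Mdm4 were not whole numbers, unlike those of the other 9 members.

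A short form made by skipping 1 exon, Mdm4-S, is known in mouse and human. Its shifted frame brings an early stop, and its RNA is subject to nonsense-mediated decay. In the annotation Mdm4-214, of the nonsense-mediated decay class, lacks an exon of 68 nt at chr1:133004654-133004721 on the minus strand, which leaves a remainder of 2 on division by 3. Capitals mark that exon, and the line after it joins the same neighbours without it.

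Mdm4-210: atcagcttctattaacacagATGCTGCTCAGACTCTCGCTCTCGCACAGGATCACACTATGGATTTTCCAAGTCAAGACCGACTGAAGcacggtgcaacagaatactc
Mdm4-214: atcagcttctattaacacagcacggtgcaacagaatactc

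Mdm4-214 stood at 6.65 TPM in replicate 1 and 3.70 TPM in replicate 2, from 1309 and 1871 reads. Its share of TPM among models that hold the whole exon or skip it was 38.0% in replicate 1 and 22.8% in replicate 2. Of all Mdm4 reads it held 18.2% and 9.35%. These shares rest on reads along the whole model and not on the junction alone. Unlike the Mdm2 and Trp53 forms above, this skipped form was estimated above 0 in both libraries, with lower bounds of 5.92 and 3.36 TPM. The full-length Mdm4-210 led the gene in both, at 10.6 and 12.3 TPM, and complete coding models held 50.3% and 49.5% of Mdm4 TPM. Nonsense-mediated decay models held 30.8% and 18.1%, beside a mean over 7347 genes of 3.46% in replicate 1 and 3.35% in replicate 2. That mean takes in genes without such models.

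Ppm1d, the phosphatase Wip1 that switches off the kinases of the checkpoint and p53, lies on chromosome 11 at 85311244 to 85347066 on the plus strand. It stood at 3.46 TPM in replicate 1 and 2.68 TPM in replicate 2 (3.07 ± 0.552), from 709 and 1251 reads. In reads it stood at 25.2 CPM in replicate 1, against 14.9 CPM in replicate 2, the largest ratio among the members. In replicate 2 the incomplete coding model Ppm1d-202 held 14.2% of its TPM, and in replicate 1 none.

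Ccng1, cyclin G1, a p53 target that recruits a phosphatase to Mdm2, lies on chromosome 11 at 40748552 to 40755311 on the minus strand. It stood at 17.4 TPM in replicate 1 and 15.9 TPM in replicate 2 (16.7 ± 1.02), from 4358 and 10277 reads. A single model held 99.7% and 99.9% of it, so its level hardly depends on how reads are divided among models.

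Zmat3, an RNA-binding zinc finger protein, lies on chromosome 3 at 32334792 to 32366014 on the minus strand. It was the member of lowest level, at 0.38 TPM in replicate 1 and 0.41 TPM in replicate 2 (0.395 ± 0.0212). These values rested on 196 and 501 reads spread over a long transcript, and 50.5% of nuclear protein-coding genes were lower. A model with a retained intron was listed at 0.07 TPM in replicate 1 and 0.12 TPM in replicate 2.

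Atm, the kinase that answers to double-strand breaks, lies on chromosome 9 at 53439149 to 53536740 on the minus strand. It stood at 9.05 TPM in replicate 1 and 11.5 TPM in replicate 2 (10.3 ± 1.75), from 5873 and 18015 reads. Its long complete coding model of 10006 nt held 86.4% and 80.9% of its TPM but 99.4% and 98.9% of its reads. The remaining TPM lay on different short models in the 2 libraries: Atm-203, of 602 nt, at 1.23 TPM in replicate 1 and 0 in replicate 2, and Atm-205, of 643 nt, at 0 and 2.18 TPM.

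Atr, the kinase that answers to single-stranded DNA at stalled forks and that dividing cells need, lies on the same chromosome at 95857597 to 95951781 on the plus strand. It stood at 12.7 TPM in replicate 1 and 14.6 TPM in replicate 2 (13.7 ± 1.38), from 5544 and 16374 reads. Its 11 models with retained introns took up 37.0% of Atr TPM in replicate 1 and 37.8% in replicate 2. The mean over all 7347 genes, those without such models included, was 9.10% and 9.24%. Of those genes 93.0% had a lower share, averaged over the 2 libraries. The libraries lay within 1 percentage point of each other in this share, the closest agreement for any member that has such models at more than 1% of TPM. By reads the share was 13.6% and 14.8%. Antisense genes that overlap Atr held few reads, 79 and 263 for 1700065D16Rik and 35 and 25 for Gm16794, and the snRNA gene Gm24004 had 0. Whether reads were assigned by strand was not given in the sources used here, so reads of such partners cannot be told apart.

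**Figure D2:**
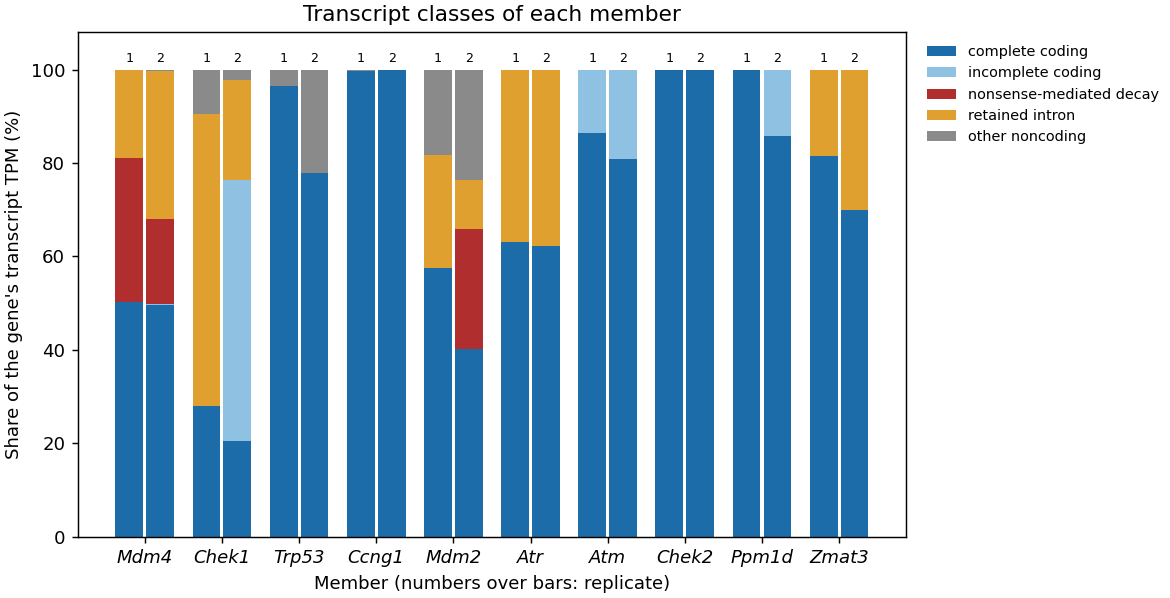
Share of each member's transcript TPM (vertical axis, percent) by annotated class of transcript, with replicate 1 as the left bar and replicate 2 as the right bar of each pair. Atr kept nearly the same division into classes in both libraries, while incomplete coding models of Chek1 took 0% in replicate 1 and 55.9% in replicate 2.

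Chek1, the kinase that acts after Atr to delay entry into mitosis, lies on chromosome 9 at 36708482 to 36727065 on the minus strand. It stood at 17.9 TPM in replicate 1 and 27.6 TPM in replicate 2 (22.7 ± 6.87), with the largest coefficient of variation of the members, 30.2%. Its reads, 1714 and 4451, were 60.9 CPM in replicate 1, beside 52.96 CPM in replicate 2, so the library higher in TPM was lower in CPM. The effective length of the gene was 1259 nt in replicate 1 and 829 nt in replicate 2. The offset of TPM between the libraries, given above with Trp53, enters these TPM values too.

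Models under 1000 nt took up 62.5% of Chek1 TPM in replicate 1 and 77.3% in replicate 2, from 14.6% and 15.5% of its reads. In replicate 1 most of this was Chek1-206, a retained-intron model of 508 nt, at 11.1 TPM, which stood at 5.91 TPM in replicate 2. In replicate 2 it was Chek1-203, an incomplete coding model of 310 nt, at 15.4 TPM from 340 reads, which stood at 0 TPM in replicate 1. The full-length Chek1-201, of 3397 nt, was close in both, at 4.98 and 5.50 TPM. Chek1 was the only member of the 9 with several models and 100 reads in each library whose leading model by TPM differed between libraries. The other 8 of 9 kept theirs, beside 76.0% of 7347 genes. It was also the only 1 of the 9 led in both libraries by another model in TPM than in reads, beside 8.22% of those genes. By reads, all 9 kept 1 leading model. These counts take Trp53-201 as the leading model of Trp53. Its bounds overlapped those of Trp53-203 in both libraries, so the leader of Trp53 is not settled.

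Chek2, the kinase that acts after Atm, lies on chromosome 5 at 110839979 to 110874145 on the plus strand and had 1 model in the tables. It stood at 6.06 TPM in replicate 1 and 8.20 TPM in replicate 2 (7.13 ± 1.51), from 939 and 3264 reads, or 33.3 and 38.8 CPM.

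In order of mean TPM the members were Mdm4, Chek1, Trp53, Ccng1, Mdm2, Atr, Atm, Chek2, Ppm1d and Zmat3. Of the 9 neighbouring pairs, 3 had ranges over libraries that overlapped, Mdm4 with Chek1, Chek1 with Trp53 and Trp53 with Ccng1. Within each library Chek1 was nonetheless above Trp53, and Mdm4 above both Trp53 and Ccng1. The libraries disagreed on the order of Mdm4 and Chek1 and on that of Trp53 and Ccng1. From Ccng1 down, each gene was higher than the next in both libraries. The deposited bounds nevertheless overlapped for Ccng1 and Mdm2 in replicate 1 and for Mdm2 and Atr in replicate 2.

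Related members were compared within each library on the scale log2(TPM + 0.1). Mdm2 stood below Mdm4 by a difference of -0.44 in replicate 1 and -0.75 in replicate 2 (-0.59 ± 0.22, SD, n = 2). Atr minus Atm was 0.48 and 0.34 (0.41 ± 0.10), and Chek1 minus Chek2 was 1.54 and 1.74 (1.64 ± 0.14). Trp53 minus Mdm2 was 0.05 and 0.63 (0.34 ± 0.41), a mean within the spread between libraries. Ccng1 minus its relative Ccng2 was 0.60 in replicate 1 and -0.061 in replicate 2, with opposite signs.

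On complete coding models alone, an alternative chosen after seeing the data, the order changed. Trp53 then led at 17.0 ± 1.51 TPM, followed by Ccng1 at 16.6 ± 0.983 and Mdm4 at 11.6 ± 1.14 TPM. Chek1 moved to the eighth place at 5.32 ± 0.474 TPM, below Chek2 at 7.13 ± 1.51 TPM, and Chek1 minus Chek2 became -0.40 ± 0.18. As CPM per kilobase of the longest complete coding model, Chek1 stood at 16.03 and 13.9, and Chek2 at 14.8 and 17.3, so the libraries gave opposite signs. Atr minus Atm on complete coding models was -0.0024 ± 0.049, and per kilobase of the longest such model 0.20. Mdm2 stayed below Mdm4 on both scales, at -0.64 ± 0.57 on complete coding models, a wide spread, and at -0.46 ± 0.01 per kilobase.

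**Figure D3:**
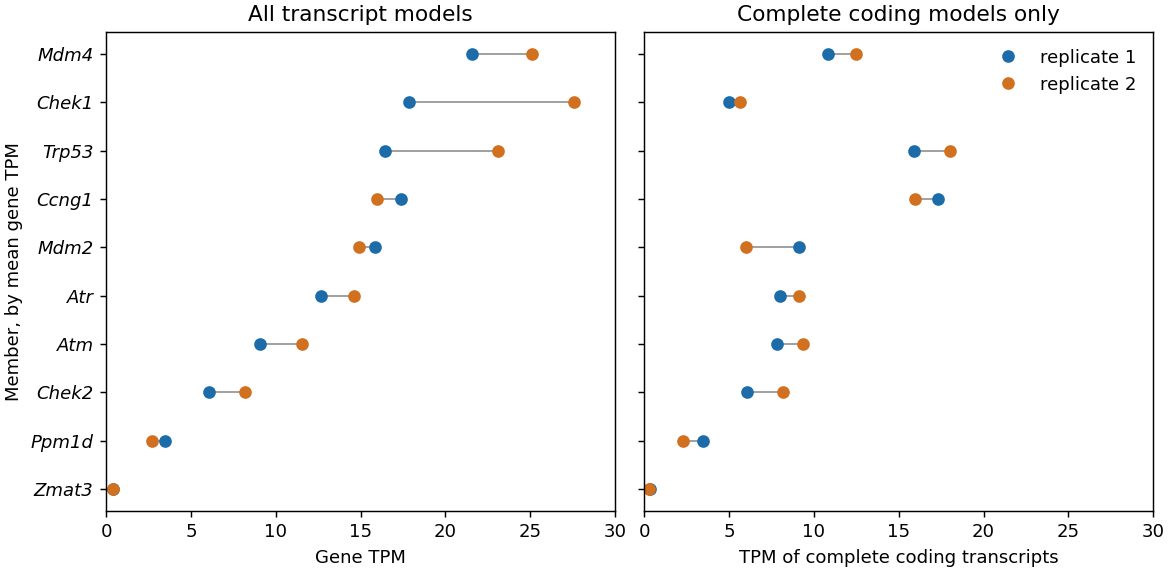
Level of each member in replicate 1 and replicate 2 (points joined by a line, TPM on the horizontal axes) over all transcript models (left) and over complete coding models only (right), with members in the order of mean gene TPM in both. Chek1 stood at 17.9 and 27.6 TPM on the left and at 4.99 and 5.66 TPM on the right, while Ccng1 hardly moved.

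No member differed 2-fold between the libraries in reads. The ratio was taken as log2 CPM of replicate 2 over replicate 1 after scaling by TMM, a trimmed mean of ratios. Among 15102 genes with a mean of at least 10 reads, 13.4% were at least 2-fold higher in replicate 2 and 7.40% at least 2-fold lower, 20.8% in all. Among the 9804 genes with at least the mean read count of Zmat3, 2.32% were 2-fold apart either way, so 0 of 10 members is near that background. The size of the ratio had a median of 0.16 over the members and 0.20 over those genes.

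Ppm1d had the largest ratio at -0.75, then Ccng1 at -0.34, Chek2 at 0.22 and Zmat3 at -0.22. Atr at -0.01, Atm at 0.04 and Trp53 at 0.05 were nearest to 0. The ratios of Trp53, Atr and Zmat3 were within their 95% counting error. In TPM, 7 members were higher in replicate 2 and 3 were lower, and the deposited bounds of the 2 libraries overlapped for 2 members. Every member had a higher ratio in TPM than in reads. This includes Ccng1, Atr and Chek2, whose effective lengths were nearly equal in both libraries and whose TPM ratios were -0.12, 0.20 and 0.43. The median TPM of nuclear protein-coding genes was 0.29 in replicate 1 and 0.35 in replicate 2. By reads, only Trp53, Atm and Chek2 had ratios above 0, beside a median of 0.035 over genes with a mean of at least 10 reads. Shares of all genes beside these counts were not computed, so the counts are not read as traits of the members.

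**Figure D4:**
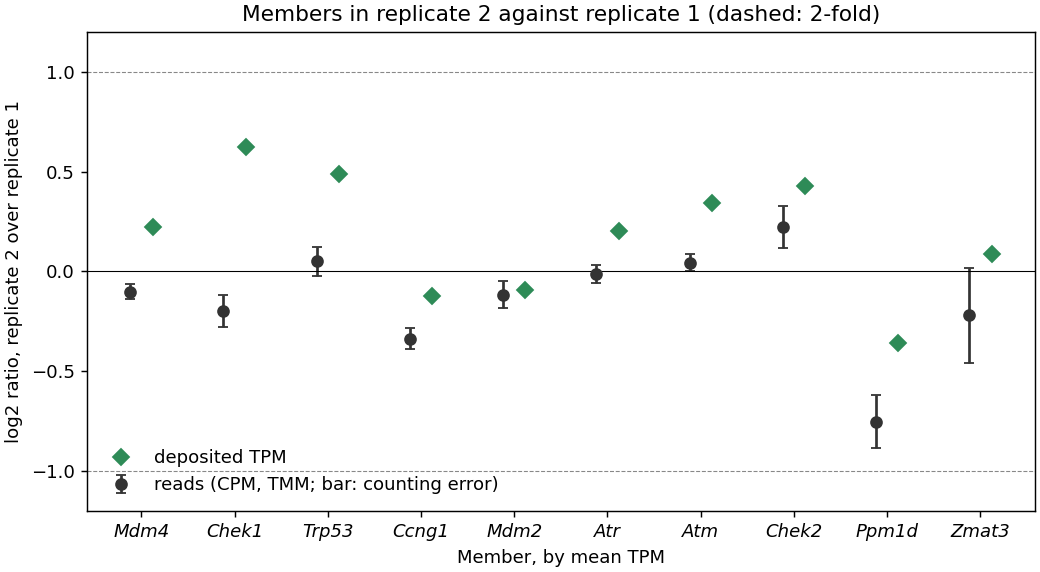
Log2 ratio of replicate 2 over replicate 1 (vertical axis) for each member, from reads as TMM-scaled CPM (circles, bars of 95% counting error) and from deposited TPM (diamonds). Chek1 lay at -0.20 in reads and 0.62 in TPM, and no member passed the dashed 2-fold lines. Every member lay higher in TPM than in reads.

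Other genes of the pathway were described from 5 lists with 75 genes, of which 63 reached 1 TPM in both libraries. Among p53 target genes, which the members Mdm2, Ccng1, Zmat3 and Ppm1d are not counted in, 15 of 24 reached it, with a median of 2.33 TPM. Highest were Btg2, an antiproliferative factor, at 19.5 ± 0.0212 TPM, the DNA repair gene Xpc at 17.5 ± 1.39 TPM and Sesn1, a sestrin, at 10.7 ± 0.134 TPM. The lowest were the death receptor gene Tnfrsf10b at 0.02 and 0.17 TPM, and Gdf15, a secreted stress factor, at 0.06 and 0 TPM. Cdkn1a, which encodes the cell cycle inhibitor p21 and is the classic p53 target, stood at 0.76 TPM in replicate 1 and 1.73 TPM in replicate 2. Of the genes that promote apoptosis, Bax stood at 6.30 ± 0.382 TPM and Bbc3, which encodes Puma, at 0.29 and 0.55 TPM. Ccng1 and Mdm2 thus lay near the top of the range of these targets, and Zmat3 near Bbc3.

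Damage sensors and mediators, which work beside Atm and Atr, reached 1 TPM in both libraries for 20 of 20 genes, with a median of 9.95 TPM. H2afx, the histone variant marked by Atm at breaks, stood at 64.4 ± 6.63 TPM, Tipin, a fork protection factor, at 61.2 ± 3.06 TPM, and Topbp1, an activator of Atr, at 47.1 ± 9.39 TPM. At the low end were Atrip, the partner of Atr, at 4.38 ± 0.834 TPM, and Rad9a, part of the 9-1-1 clamp, at 2.92 ± 1.14 TPM. Atr itself, at 13.7 TPM, lay above its partner.

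Cell cycle effectors of the checkpoint reached that level for 6 of 6 genes, with a median of 6.17 TPM. Wee1, the kinase that holds back mitosis, stood at 7.36 TPM in replicate 1 and 13.7 TPM in replicate 2. The mitotic kinase Plk1 stood at 8.41 ± 2.79 TPM, and the phosphatase genes Cdc25a, Cdc25b and Cdc25c, whose products Chek1 and Chek2 inhibit, at 8.11 ± 2.40, 3.13 ± 0.516 and 2.83 ± 0.460 TPM.

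Modifiers of p53 reached it for 13 of 14 genes, with a median of 9.19 TPM. The ribosomal protein genes Rpl11 and Rpl5, whose products can bind Mdm2, led at 245 ± 1.17 and 86.3 ± 14.7 TPM, and Usp7, a deubiquitinase of Mdm2 and p53, stood at 46.8 ± 8.54 TPM. Hipk2, a kinase of p53, stood at 2.88 ± 1.05 TPM. Cdkn2a, which encodes the Mdm2 inhibitor Arf, had 0 counts in both libraries, which leaves room for at most 0.107 CPM in replicate 1, and for 0.0357 CPM in the deeper replicate 2.

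Among relatives of the members 9 of 11 reached 1 TPM in both libraries. The exceptions were the p53 family genes Trp63 and Trp73, with 0 counts each and the same limits, so Trp53 was the only gene of its family detected at this depth. Of the other phosphatases and cyclin relatives, Ppm1g stood at 48.9 ± 8.49 TPM, Ccni at 34.0 ± 4.52 TPM and Ccng2 at 14.1 ± 3.66 TPM. Of the kinases related to Atm and Atr, Trrap, a member that has lost kinase activity, stood at 16.1 ± 1.23 TPM and Prkdc, which acts in end joining, at 5.70 ± 1.56 TPM.

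**Figure D5:**
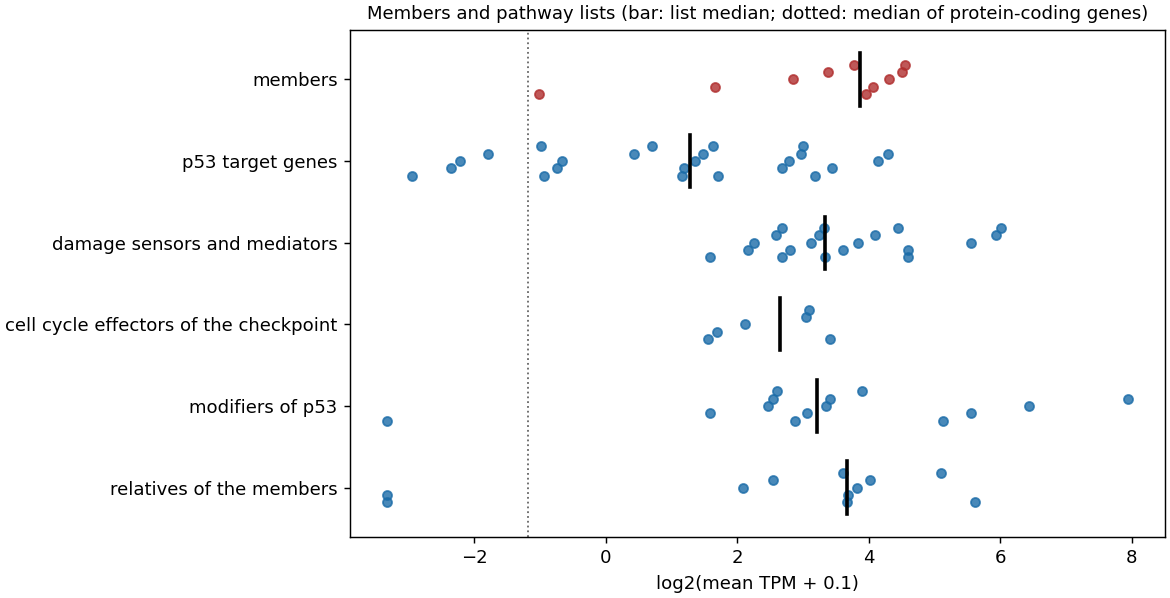
Level of each gene as log2(mean TPM + 0.1) (horizontal axis) for the members and 5 pathway lists, with the median of each list (black bar) and of all nuclear protein-coding genes (dotted line). The medians were 14.5 TPM for the members, 9.95 TPM for damage sensors and mediators and 2.33 TPM for p53 target genes.

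Promoter windows of RefSeq (GRCm38.p6, 250 bases before to 50 after the start) matched 9 of the 10 members. Zmat3 had no window and was not searched. Windows were read because p53 targets are among the members. The p53 half-site, a motif of 10 bases searched by its consensus name, was present for 4 of 9 members, Ccng1, Mdm2, Ppm1d and Trp53, beside 8.36% of 32851 windows of all genes. For this and the motifs below, members were counted by gene over their 10 windows, and the background was counted by window. Capitals mark the half-site, and positions count from the start.

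Ccng1: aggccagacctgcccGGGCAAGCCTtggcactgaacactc
Mdm2: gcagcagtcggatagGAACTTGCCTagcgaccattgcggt
Ppm1d: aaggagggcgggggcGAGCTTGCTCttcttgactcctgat
Trp53: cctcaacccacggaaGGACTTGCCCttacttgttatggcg

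The half-sites begin 185, 186, 132 and 75 bases before the start in that order of genes. The printed stretches, with flanking bases in lower case, lie at chr11:40755447-40755486 on the minus strand, chr10:117710920-117710959 on the minus strand, chr11:85311107-85311146 on the plus strand and chr11:69580269-69580308 on the plus strand. A full site, made of a pair of half-sites with a spacer of 0 to 13 bases, was in no member window and in 0.0731% of all windows. With no spacer and at most 1 mismatch, a search added after seeing the data, Ccng1 was the only member with a match, beside 0.0670% of all windows. That match begins 195 bases before the start and takes in the half-site above. It is shown in capitals within the stretch chr11:40755452-40755491 on the minus strand.

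Ccng1 full site: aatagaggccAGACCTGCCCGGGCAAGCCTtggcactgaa

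The window of Mdm2 covers its upstream promoter and not the one in intron 1. The box CCAAT was in the windows of 6 of 9 members, beside 37.4% of all windows, and GGCGGG, part of the binding motif of Sp1, was in 6 of 9, beside 35.3%. TTTGAA, a core of the motif of cell cycle genes repressed through p53 and the DREAM complex, was in none of the 9, beside 17.9% of all windows. All motifs were searched on both strands. A match describes the sequence and shows no binding.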

How the data were processed

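RNA depleted of ribosomal RNA was measured in 2 libraries made from 100 ng each, per the labels, which give a size range of 200 to 1000 in replicate 1 and of 187 to 1606 in replicate 2, unit not stated. The part of this difference in transcript shares was not tested. The authors deposited gene and transcript tables built on mm10 and GENCODE M4, as their readmes state. Aligner, quantifier and strand setting are not given in the sources used here. The authors' TPM, expected counts, FPKM and posterior mean TPM were used as deposited, per the file headers. The bounds of TPM are signal values that the authors deposited with no confidence level, and the deposited percent of each gene per transcript was computed by the authors and not used here. TPM is relative to all entries, short RNAs included.

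Members, lists and alternatives were chosen with earlier results of these data known. By rule all 10 members were named, with the 3 highest and 2 lowest genes of each pathway list by mean TPM, Cdkn1a, Bax, Bbc3, Wee1, Prkdc, Usp7, relatives used in a pair, and genes that overlap a member.

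Annotation and exon sequences are those of GENCODE M21 (GRCm38, identical in assembly to mm10), joined by Ensembl ID. Of 64 models of the members, 1 was not in M21 and 6 had another length there. Percent shares were computed from transcript TPM. Complete coding models are protein-coding models with both ends of the coding sequence annotated. Expected counts were rounded for scaling with edgeR 4.0.16 (TMM, prior count 0.5) and DESeq2 1.42.0 in R 4.3.3. The code for the ratios was run on simulated counts that held counting error only. That run checked the code and not the spread of real libraries. Python 3.11.15 and pandas 2.3.3 served for the rest. A count of 0 allows up to 3 counts. Reads carry no molecular identifiers, so limits and counting errors cover counting error only. No p-values were computed, since the series holds 1 group.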

Additional observations from a re-analysis of the deposited data

How the results depend on the processing

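No paired analysis was possible because the series holds 1 group. The median level of the members, 14.5 TPM, was 14.5 by posterior mean TPM, 69.8 with TPM summed over nuclear protein-coding genes only and 36.4 in FPKM, which are other units rather than other levels. On scales added after seeing the data it was 8.06 TPM over complete coding transcripts and 22.7 CPM per kilobase of the longest complete coding transcript. Chek1 minus Chek2 (log2) reversed to -0.40 ± 0.18 on the first of these scales. On the second it was -0.10 ± 0.30, with opposite signs in the 2 libraries. Atr minus Atm became -0.0024 and 0.20 in the same order of scales. On complete coding transcripts Ccng1 minus Ccng2 became 1.15 and Trp53 minus Mdm2 1.18. The complete coding scale leaves out short and retained-intron models by construction, while the scale per kilobase keeps all reads of a gene. Leaving out a replicate gave Ccng1 minus Ccng2 of -0.061 without replicate 1 and 0.60 without replicate 2. Trp53 minus Mdm2 ran between 0.05 and 0.63 in the same way.

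The counts of members and pathway genes at 1 TPM, of overlapping neighbours, of members 2-fold apart and of shared leading transcripts stayed within 1.5 times under every alternative run. On TPM rescaled to nuclear protein-coding genes all 10 members reached 1, since Zmat3 stood at 1.89 and 1.90 there. At a level of 5 TPM, 8 members did. The count of shared leading transcripts could not be had without a replicate. Of 110 single values recomputed, 80 moved by less than their spread or not at all. These include 20 values without replicate 1 and 20 without replicate 2, which could not come out otherwise. With 2 libraries, each value lies within 1 SD of their mean by construction. A further 10 with DESeq2 size factors and 10 with total counts changed the library scaling only. The 80 therefore say little about robustness. Of the 30 that moved further, 20 were on FPKM or on rescaled TPM. The part of depth in the forms listed at 0 in replicate 1 was not tested. Both libraries carry 1 donor label, so spread between animals is not known.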
